A study of Homo sapiens with 18 samples.

Results

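The genes described here make, restrict, remove and read ADP-ribose at DNA breaks and telomeres. They are PARP1, PARP2, PARP3, PARG, ADPRS, HPF1, XRCC1, LIG3, TNKS and TNKS2. They were chosen by gene symbol, with earlier results of these data known. They make up 10 of the 62749 genes and 95 of the 252048 transcripts in the table. Messenger RNA was sequenced in 18 libraries of MDA-MB-231, a mesenchymal triple-negative breast cancer line, in 6 groups of 3. Unedited, untreated cells are WT. KO cells carry a knockout of IMPDH2, which encodes the enzyme of the rate-limiting step of guanine nucleotide synthesis, and were untreated. KO+G are the same knockout genotype grown with 400 µM guanosine, from which cells can make guanine nucleotides by salvage. KO-WT, KO-NLS and KO-NES are untreated knockout cells with IMPDH2 put back with no localisation signal named, as a nuclear form or as a cytosolic form, so that 5 of the 6 groups carry the knockout. The labels do not say whether a line is 1 clone, whether the 3 libraries of a group are separate cultures, or how long guanosine was given. Every p therefore measures the spread between these libraries, which may be technical, and a difference between edited lines cannot be told apart from a difference between clones. The series is about nuclear IMPDH2 and PARP1 activity. The files hold mRNA, and neither protein nor enzyme activity was measured here.

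PARP1 binds broken DNA and uses NAD+ to build chains of ADP-ribose on itself, histones and other proteins, and PARP2 is its close relative with an overlapping role. HPF1 completes the active site of both enzymes and directs them to serine residues. The chains recruit XRCC1, a scaffold that carries the ligase LIG3 to single-strand breaks. PARG trims the chains, and ADPRS, also known as ARH3, removes the last unit from serine. PARP3 attaches single units and acts at double-strand breaks. The tankyrases TNKS and TNKS2 modify other partners, among them the telomere protein TERF1 and the Wnt pathway scaffolds AXIN1 and AXIN2. PARP1 is known in breast cancer as the target of PARP inhibitors.

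To show the DNA in front of 4 genes that the results below turn on, the 250 bases upstream of the start of PARP1, HPF1, ADPRS and PARP3 are printed 5′ to 3′ on the strand of each gene, from RefSeq on GRCh38.p14. PARP1 and HPF1 rose in every group that was resupplied with guanosine or IMPDH2, PARP3 fell in every such group, and ADPRS and HPF1 had the widest falls in KO. The windows are chr1:226408094-226408343 on the minus strand for PARP1, chr4:169757945-169758194 on the minus strand for HPF1, chr1:36088642-36088891 on the plus strand for ADPRS and chr3:51942113-51942362 on the plus strand for PARP3. Capitals mark matches on either strand to the GC box letters GGGCGG, to the letters CCAAT or to the ETS motif CCGGAAGT, which overlap nowhere in these 4 windows.
PARP1: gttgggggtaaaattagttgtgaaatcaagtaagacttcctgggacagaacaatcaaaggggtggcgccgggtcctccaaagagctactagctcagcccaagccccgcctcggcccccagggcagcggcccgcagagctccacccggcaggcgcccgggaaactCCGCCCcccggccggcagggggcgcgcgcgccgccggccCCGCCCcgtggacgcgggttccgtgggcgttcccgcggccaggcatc
HPF1: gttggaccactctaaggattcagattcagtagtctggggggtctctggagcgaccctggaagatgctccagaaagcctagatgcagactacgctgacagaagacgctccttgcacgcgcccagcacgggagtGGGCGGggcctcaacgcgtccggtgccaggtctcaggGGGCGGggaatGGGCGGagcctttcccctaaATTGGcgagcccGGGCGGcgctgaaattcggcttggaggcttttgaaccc
ADPRS: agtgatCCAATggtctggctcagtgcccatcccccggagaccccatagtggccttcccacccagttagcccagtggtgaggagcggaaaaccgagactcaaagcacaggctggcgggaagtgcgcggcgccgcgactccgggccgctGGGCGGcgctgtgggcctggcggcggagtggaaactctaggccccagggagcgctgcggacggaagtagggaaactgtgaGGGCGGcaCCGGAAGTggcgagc
PARP3: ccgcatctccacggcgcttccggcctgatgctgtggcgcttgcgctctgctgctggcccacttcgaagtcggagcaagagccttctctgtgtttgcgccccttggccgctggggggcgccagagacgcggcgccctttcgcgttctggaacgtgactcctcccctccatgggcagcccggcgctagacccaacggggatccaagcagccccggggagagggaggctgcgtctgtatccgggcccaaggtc
A window was found for 9 of the 10 genes. The GC box occurred in 6 of these 9 windows and in 42.6% of all 35116 RefSeq windows of that length, and it occurred 2 times for PARP1, 4 times for HPF1, 2 times for ADPRS and not for PARP3. The letters CCAAT occurred in 4 of 9 windows against 32.0% of all, and the ETS motif in 1, that of ADPRS, against 3.42%. Matches to E2F (TTTCCCGC or TTTGGCGC), NRF1 (by name alone) and the letters TATAAA occurred in 0 of the 9 windows, against 1.93%, 1.03% and 10.7% of all. These matches describe letters, and no factor's binding was measured.

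The libraries held between 45865079 and 63276484 estimated read counts. The filter on low counts left 19252 genes, among them all 10 described here. Levels are CPM, read counts relative to the size of the library, scaled by TMM (a correction for library composition), and each ± is an SD over n = 3 libraries. The test was edgeR's quasi-likelihood test over all genes, and a gene was called higher or lower where its p, adjusted after Benjamini and Hochberg, was under 0.05. IMPDH2 itself followed the labels, with 319 ± 0.557 CPM in WT, 41.6 ± 0.566 in KO, 22.1 ± 0.11 in KO+G, 532 ± 10.4 in KO-WT, 297 ± 12.6 in KO-NLS and 379 ± 13.9 in KO-NES. The markers of the line (VIM, CD44, AXL, EGFR and ZEB1) summed to 7074 to 7386 CPM in WT, 4894 to 5227 in KO and 5291 to 6693 in the other groups, while 5 receptor or luminal genes, expected to be low in triple-negative cells, summed to 76.4 to 91.2. Of these, ERBB2 stood at 69.4 to 83.3 CPM and GATA3 at 4.86 to 8.85 over the group means, and ESR1, PGR and FOXA1 at 0.21 or less. Of the genes of other cells, CDH5 and CD3E were under 0.02 CPM in each group mean, and PTPRC, CD3E and LYZ together stayed under 2 CPM in each library. The endothelial pair PECAM1 and CDH5 summed to 10.2 to 12.2 CPM in WT and 2.95 to 5.49 in the other groups, and the epithelial pair CDH1 and EPCAM to 7.62 to 9.98 throughout. The summed level of 8 proliferation genes (MKI67, TOP2A, PLK1, CCNB1, BIRC5, MCM2, MCM4 and RRM2) was 2483 to 2570 CPM in WT, 972 to 1002 in KO, 2306 to 2325 in KO+G, and 1745 to 1935 in the other 3 groups. The mitochondrial share of counts was 5.18% ± 0.03 in WT and 7.41% to 7.82% in the other group means. The part of these markers and of this share in the differences below was not tested.

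In KO the mRNA of the serine cofactor HPF1, the serine hydrolase ADPRS, the scaffold XRCC1 and both tankyrases was lower than in WT, and that of PARP1, PARP2 and PARG was a little higher. That made 8 of 10 genes called in KO against WT, 3 higher and 5 lower. Of all 19252 genes tested, 72.7% were called in this comparison, 35.9% higher and 36.8% lower, so the count of 8 is near the background. In bulk libraries, fewer cells with an mRNA and less of it in each cell cannot be told apart. The changes were small beside those of other genes. The median size of the log2 fold change was 0.15 over the 10 genes and 0.49 over all genes, and no member passed 0.6. The groups did not overlap for 8 of the 10, against 74.7% of all genes.

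Among the enzymes that make ADP-ribose, PARP1 (chr1:226360691-226408079, minus strand) lay at 250 to 252 CPM in the 3 WT libraries and at 281, 263 and 271 in KO. All KO libraries were above all WT libraries. The log2 fold change was 0.11 ± 0.026 (SE; adjusted p = 0.000754, edgeR quasi-likelihood test), or 108% of WT. With counts corrected for average transcript length this call was lost, at 0.01 (the transcripts behind this are given below). PARP2 (chr14:20343582-20357905, plus strand) had 66.2, 69.6 and 66.4 CPM in WT and 75.7, 72.1 and 72.3 in KO, again without overlap, at a log2 fold change of 0.12 ± 0.038. Its call was lost with the length correction too, at 0.04. PARP3 (chr3:51942345-51948867, plus strand) had 20.6, 18.6 and 19.5 CPM in WT and 20.2, 21.5 and 21.5 in KO. The groups overlapped and the difference of 0.11 ± 0.047 did not pass (adjusted p = 0.0513, edgeR quasi-likelihood test). It passed, at 0.16, without the first WT library and, at 0.14, without the first KO library. It passed too with coding transcripts alone, at 0.17, and with these and the length correction, at 0.24. PARP3 lies on the same chromosome as the edited gene, with 2.92 Mb between their starts.

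HPF1 (chr4:169729465-169757953, minus strand) stood at 20.1, 20.1 and 20.6 CPM in WT and fell to 14.5, 14.3 and 13.4 in KO. Every KO library was below every WT library, and the mean was 69.4% of WT. The log2 fold change was -0.53 ± 0.051 (SE; adjusted p = 3.51e-08, edgeR quasi-likelihood test). ADPRS (chr1:36088875-36093932, plus strand) fell further, from 49.6, 48.5 and 49.0 CPM to 32.3, 32.9 and 32.1. Its log2 fold change of -0.60 ± 0.036 (SE; adjusted p = 3.62e-11) left 66.1% of the WT level. The other remover of ADP-ribose, PARG (chr10:49818279-49970203, minus strand), moved the opposite way by a little, from 53.1 ± 1.08 to 56.6 ± 1.77 CPM at a log2 fold change of 0.09 ± 0.029. Counting coding transcripts alone with the length correction ended the PARG call, at 0.10. Falls of HPF1 and ADPRS were called under each of the alternative settings and with each library left out in turn.

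Of the repair pair that reads the chains, XRCC1 (chr19:43543040-43580473, minus strand) fell from 20.7 ± 0.249 to 17.7 ± 0.654 CPM, at a log2 fold change of -0.23 ± 0.054 (SE; adjusted p = 0.0011). That call was lost with coding transcripts alone and the length correction, at -0.14. LIG3 (chr17:34980494-35009743, plus strand) had 41.9 ± 0.814 CPM in WT and 41.3 ± 1.99 in KO, and its difference of -0.02 had an interval of -0.09 to 0.05. TNKS (chr8:9555914-9782346, plus strand) fell from 26.0 ± 0.793 to 22.2 ± 1.44 CPM, at -0.23 ± 0.046, and the length correction ended this call at -0.07. TNKS2 (chr10:91798312-91865276, plus strand) fell from 119 ± 2.49 to 105 ± 0.732 CPM, at -0.18 ± 0.024. With coding transcripts alone the called differences of PARP1, PARP2 and PARG were 0.17, 0.22 and 0.14 and those of TNKS and TNKS2 -0.15 and -0.10, all still called. PARG gave 0.19 with the length correction.

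**Figure D1:**
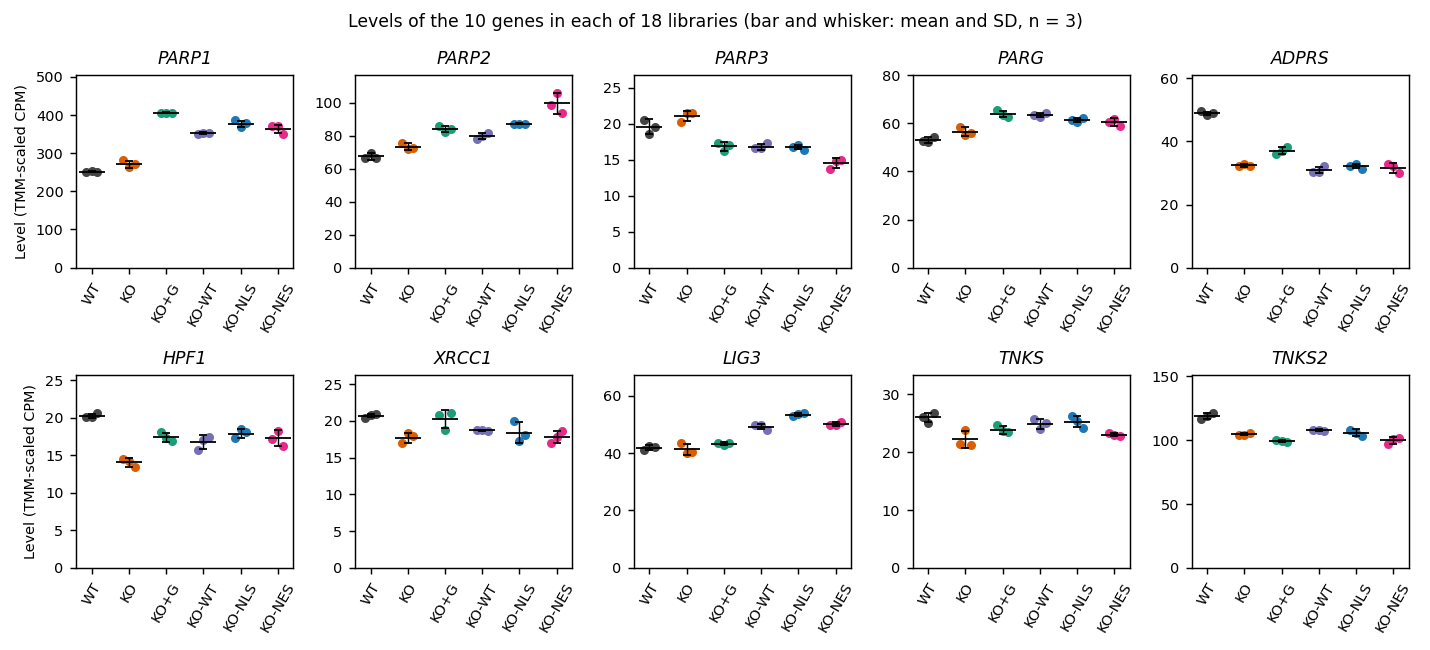
Level of each of the 10 genes in TMM-scaled CPM (vertical axis, from 0) in the 18 libraries, by group (horizontal axis); points are libraries, and the line and whiskers are the mean and SD of 3. PARP1 lies at 250 to 281 CPM in WT and KO and at 349 to 406 in the other 4 groups, while ADPRS lies near 49.0 CPM in WT alone.

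The 4 groups that were given guanosine or IMPDH2 were each compared with KO. These 4 comparisons share the 3 KO libraries, so a deviation of KO would enter all of them, and their values are set side by side without a test of their likeness. PARP1 mRNA was 1.3 to 1.49 times that of KO in each of the 4. PARP2, PARG and HPF1 were higher than KO in all 4 as well, and PARP3 was lower in all 4. KO+G against KO had 6 genes higher and 2 lower, where 56.5% of all genes were called, 27.3% higher and 29.2% lower. KO-WT against KO had 6 higher and 1 lower, beside 50.8% of all genes called, 25.7% higher and 25.1% lower. KO-NLS against KO had 6 higher and 1 lower, beside 53.0% of all genes, 26.1% higher and 26.9% lower. KO-NES against KO had 5 higher and 2 lower, beside 50.6% of all genes, 24.6% higher and 26.0% lower. The groups did not overlap for 8, 10, 7 and 7 of the 10 genes, in that order, against 62.4%, 58.2%, 59.7% and 55.3% of all genes.

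PARP1 reached 406, 406 and 405 CPM in KO+G, 349, 353 and 354 in KO-WT, 386, 369 and 378 in KO-NLS, and 370, 370 and 351 in KO-NES. All 12 of these libraries were above the 3 KO libraries and above the 3 WT libraries. The log2 fold change against KO was 0.58 ± 0.026 (SE; adjusted p = 2.29e-12, edgeR quasi-likelihood test) with guanosine, 0.37 with unlocalised IMPDH2, 0.48 with nuclear and 0.42 with cytosolic IMPDH2, the last 3 with the same SE. The 4 PARP1 calls were kept under each alternative setting and with each library left out. Their size was not, since with the length correction they became 0.87, 0.67, 0.91 and 0.84, each ± 0.125 (SE), in the same order. Coding transcripts alone with that correction gave 0.6, 0.35, 0.43 and 0.38, each ± 0.044 (SE), near the uncorrected values. PARP1 thus did not return to its WT level on resupply but moved away from it. KO-WT lay 0.49 ± 0.026 above WT on the log2 scale (SE; adjusted p = 1.06e-11), and KO+G stood at 162% of WT.

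PARP2 had 86.0, 82.0 and 84.1 CPM in KO+G, 78.1, 80.1 and 81.4 in KO-WT, 87.4, 87.1 and 87.3 in KO-NLS, and 98.9, 106 and 93.7 in KO-NES. No neighbouring groups in its order (KO-NES, KO-NLS, KO+G, KO-WT, KO, WT) overlapped. The log2 fold change against KO ran from 0.12 ± 0.038 (SE) in KO-WT to 0.44 ± 0.037 in KO-NES. Leaving out the third KO-WT library ended the call of KO-WT against KO, at 0.11, as did counting coding transcripts alone (0.08) and the length correction (0.17).

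PARP3 went the other way. It had 17.4, 16.2 and 17.0 CPM in KO+G, 16.6, 16.6 and 17.4 in KO-WT, 16.8, 17.1 and 16.4 in KO-NLS, and 13.7, 14.9 and 15 in KO-NES, where KO had 20.2 to 21.5. Each of these 12 libraries lay below every KO library. The log2 fold change was -0.32 ± 0.047 with guanosine (SE; adjusted p = 1.37e-05, edgeR quasi-likelihood test), -0.32 in KO-WT, -0.33 in KO-NLS and -0.54 ± 0.048 in KO-NES. With the length correction the calls in KO+G and KO-WT were lost, at -0.24 and -0.25.

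HPF1 rose part of the way back to WT. It had 18.1, 17.3 and 16.9 CPM in KO+G, 15.7, 17.1 and 17.5 in KO-WT, 17.3, 18.5 and 18.1 in KO-NLS, and 17.2, 18.3 and 16.3 in KO-NES. All were above KO (13.4 to 14.5) and below WT (20.1 to 20.6). Its log2 fold change against KO was 0.25 to 0.35 and stayed called under each alternative setting and without each library, and KO-WT remained 0.27 below WT (log2 fold change -0.27 ± 0.051, SE; adjusted p = 0.000131).

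ADPRS was called higher than KO with guanosine alone. KO+G had 36.1, 37.0 and 38.2 CPM, above the 32.1 to 32.9 of KO, at a log2 fold change of 0.20 ± 0.037 (SE; adjusted p = 0.000169). KO-WT had 30.9 ± 0.973 CPM, KO-NLS 32.2 ± 0.768 and KO-NES 31.7 ± 1.6, and these differences did not pass, with intervals of -0.15 to 0.01, -0.09 to 0.07 and -0.11 to 0.04 on the log2 scale. KO+G was higher than KO-WT itself by 0.26 ± 0.037 (SE; adjusted p = 1.76e-05). KO-WT stayed at 63.1% of WT.

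PARG rose from 56.6 ± 1.77 CPM in KO to 63.9 ± 1.39 in KO+G, 63.4 ± 0.873 in KO-WT, 61.5 ± 0.803 in KO-NLS and 60.6 ± 1.53 in KO-NES. The log2 fold changes of 0.10 to 0.18 were all called, but none of the 4 was called when coding transcripts alone were counted, at 0.08 to 0.11. Leaving out the second KO-NES library also ended the call of KO-NES against KO, at 0.08. XRCC1 was higher than KO with guanosine alone, at 20.2 ± 1.24 CPM and a log2 fold change of 0.19 ± 0.055, and its other 3 differences (0.01 to 0.08) did not pass. The difference between KO+G and KO-WT did not pass for XRCC1 either, at 0.11 with an interval of -0.01 to 0.22, so a guanosine-specific response of XRCC1 was not shown.

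LIG3 was called higher with each form of IMPDH2. It was higher than KO (41.3 ± 1.99 CPM) in KO-WT (49.2 ± 0.941), KO-NLS (53.4 ± 0.455) and KO-NES (50.1 ± 0.638), at log2 fold changes of 0.25, 0.37 and 0.28, each ± 0.031 (SE). With the length correction none of the 3 was called (-0.56 ± 0.61, 0.28 ± 0.607 and -0.09 ± 0.609, SE). With coding transcripts alone LIG3 was called in all 3 (0.26, 0.36 and 0.28). With these and the correction LIG3 was called in KO-NLS (0.37) and KO-NES (0.31) but not in KO-WT (0.19). In KO+G it had 43.3 ± 0.504 CPM, and the difference from KO of 0.07 did not pass (adjusted p = 0.0763). It passed, at 0.12, without the first KO library. KO+G was lower than KO-WT by a log2 of 0.18 (-0.18 ± 0.031, SE; adjusted p = 0.000135). TNKS was higher than KO in KO-WT (24.9 ± 0.916 CPM, log2 0.17) and KO-NLS (25.3 ± 1.02, 0.19), and both calls were lost with the length correction, at 0.02 and 0.06. With guanosine TNKS did not pass (log2 0.11, adjusted p = 0.0509), and it did, at 0.16, without the second KO library. TNKS2 was lower than KO in KO+G (99.5 ± 0.742 CPM) and in KO-NES (99.9 ± 2.81), each by a log2 of -0.07. Both TNKS2 calls were lost with DESeq2 size factors, at -0.06 and -0.05, and without the first KO library, at -0.07 and -0.06. The KO-NES call was also lost without the third KO library (-0.06) or the first KO-NES library (-0.05). In KO+G the TNKS2 difference was called at -0.11 with the length correction and at -0.13 with coding transcripts as well.

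**Figure D2:**
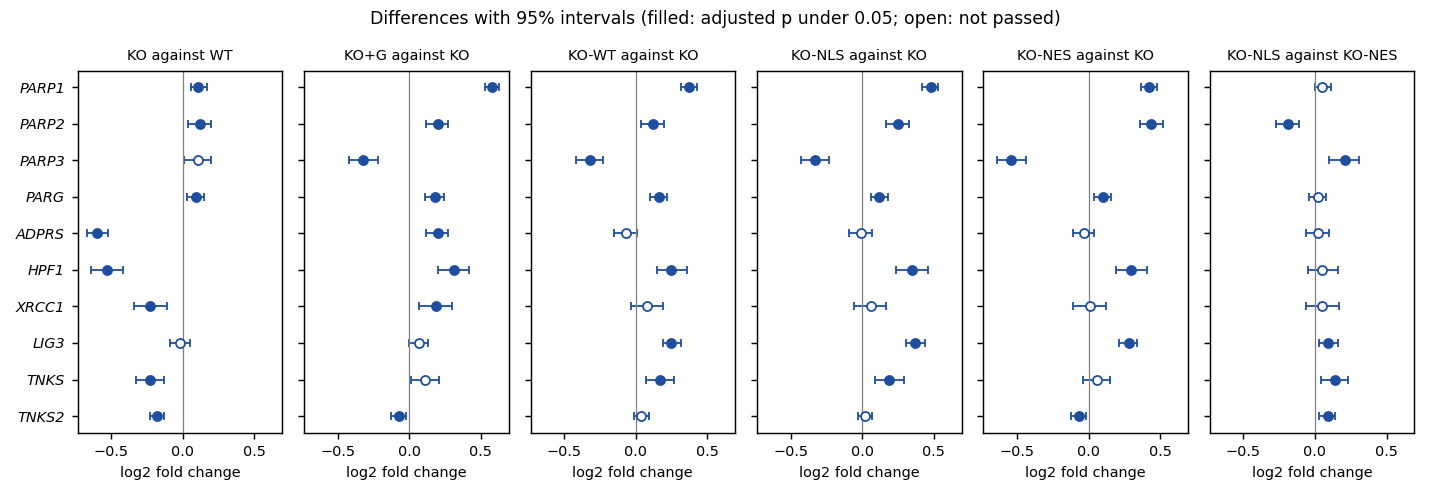
Log2 fold change of the 10 genes (rows) in 6 comparisons (panels), with 95% intervals; filled points passed the edgeR test (adjusted p under 0.05) and open points did not. PARP1 lies at 0.37 to 0.58 in the 4 panels against KO and PARP3 at -0.32 to -0.54, while in the last panel the values stay between -0.19 and 0.21.

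The title of the series names nuclear IMPDH2, and the direct comparison of the nuclear with the cytosolic form is KO-NLS against KO-NES. PARP1 did not pass there. It had 377 ± 8.55 CPM in KO-NLS and 364 ± 10.9 in KO-NES, the libraries overlapped, and the log2 difference of 0.05 had an interval from 0 to 0.11 (adjusted p = 0.155). PARP2 was lower with the nuclear form, at a log2 of -0.19 ± 0.037 (SE; adjusted p = 0.000917, edgeR quasi-likelihood test), and PARP3 was higher, at 0.21 ± 0.048 (SE; adjusted p = 0.00428). In both genes KO-NES stood farther from KO than KO-NLS did, and the libraries of the 2 forms did not overlap. With the length correction neither was called, at -0.13 and 0.20. Both were called with coding transcripts alone, at -0.23 and 0.20, and with these and the length correction, at -0.20 and 0.20. In all 5 genes were called, 4 higher and 1 lower, against 23.9% of all genes tested, 13.4% higher and 10.5% lower, and the same 5 did not overlap between groups, against 36.2%. The other 3 were LIG3, TNKS and TNKS2, at 0.09, 0.14 and 0.09. Their calls were lost in a fit of the 6 compared libraries alone. Leaving out 1 library ended the LIG3 call for each but the third KO-NES library (0.09 to 0.10), the TNKS call for each but the third KO-NLS library (0.11 to 0.14), and the TNKS2 call for the first library of either group (0.06 and 0.07). HPF1, PARG, ADPRS and XRCC1 did not pass, with differences of 0.02 to 0.05.

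Against unedited cells, KO-WT differed in 9 of 10 genes, 4 higher (PARP1, PARP2, PARG, LIG3) and 5 lower (PARP3, ADPRS, HPF1, XRCC1, TNKS2), where 64.5% of all genes were called, 31.1% higher and 33.4% lower. The groups did not overlap for these 9, against 68.8% of all genes. TNKS, at 96.0% of WT, did not pass. The XRCC1 call (log2 -0.15) was lost whichever of the 6 compared libraries was left out, at -0.12 to -0.14. The length correction ended the calls of PARP3 (-0.03) and LIG3 (0.47) here. With coding transcripts alone TNKS2 gave -0.08 in place of -0.14, and with the length correction as well PARP3 gave -0.14 in place of -0.22, both called. KO+G against KO-WT, the comparison of guanosine with the enzyme, had 4 genes called, PARP1 and ADPRS higher and LIG3 and TNKS2 lower, against 37.6% of all genes, 18.6% higher and 18.9% lower. For PARP1 the difference was 0.21 ± 0.026 (SE; adjusted p = 5.09e-06). It was not called with the length correction, at 0.20, nor was that of LIG3, at -0.27. With coding transcripts alone both were called, PARP1 at 0.28 and LIG3 at -0.18. With these and the length correction PARP1 was called, at 0.25, and LIG3 was not, at -0.17. The groups did not overlap for 5 genes, against 49.9%.

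Read per length, PARP1 and PARP2 were the most abundant of the 10 in WT, at 77.1 ± 11.5 and 70.4 ± 5.43 TPM (the deposited relative abundance, which divides by transcript length). They were followed by HPF1 (32.0 ± 0.993 TPM), ADPRS (30.1 ± 0.636), TNKS2 (26.7 ± 0.378), LIG3 (21.7 ± 16.0), PARG (18.7 ± 1.56), PARP3 (9.36 ± 0.32), XRCC1 (8.93 ± 0.345) and TNKS (3.49 ± 0.154). Of neighbours in this order, PARP1 and PARP2, TNKS2 and LIG3, LIG3 and PARG, and PARP3 and XRCC1 differed by less than the sum of their SDs. The place of LIG3 is not settled beyond these either, as its WT libraries had 11.5, 13.4 and 40.1 TPM. In WT the coding transcripts PARP2-202 and PARP2-201 gave 23.7 ± 1.69 TPM and 15.4, 20.0 and 16.5 TPM. PARP2-206, of 717 bases and annotated for nonsense-mediated decay, gave 14.7, 18.1 and 10.8 TPM. The PARP2 sum is thus not a level of coding mRNA alone.

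The SDs of PARP1 and LIG3 in TPM come from short transcripts that the quantification gave to some libraries and not to others. PARP1-203, the coding transcript of 3978 bases, held 86.8% to 92.9% of the PARP1 counts in each group mean. Its TPM was 62.8 ± 3.32 in WT, 67.7 ± 1.39 in KO, 103 ± 1.14 in KO+G, 85.4 ± 0.912 in KO-WT, 90.8 ± 6.06 in KO-NLS and 84.7 ± 1.79 in KO-NES. As in CPM, KO+G was highest and KO-NLS next. PARP1-206, of 542 bases and with no coding sequence defined, was listed at 0 TPM in 7 libraries, among them all 3 of KO, and at 22.9 to 44.7 TPM in the other 11. Because TPM divides by length, this fragment of 2.1% to 2.96% of the PARP1 counts, where present, moved the PARP1 total in KO+G between 112 and 156 TPM. LIG3-203, of 235 bases and annotated for nonsense-mediated decay, was likewise listed at 0 in 6 libraries and at 22.0 to 40.5 TPM in the others, and LIG3 ranged from 11.5 to 54.7 TPM. The length correction named above takes its lengths from the same estimates, and under it LIG3 in KO against WT gave 1.04 where the counts gave -0.02. With coding transcripts alone and the length correction, PARP1 and PARP2 were called higher in KO than in WT again.

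**Figure D3:**
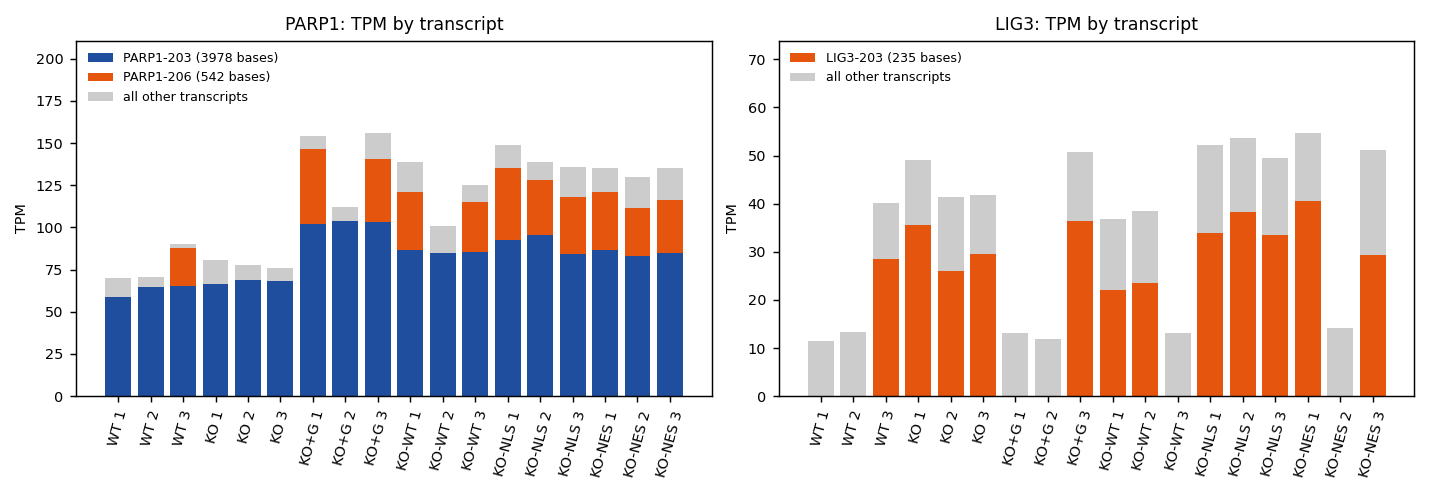
TPM of PARP1 (left) and LIG3 (right) in each of the 18 libraries (horizontal axis), stacked by transcript. The blue part, PARP1-203, lies between 59.0 and 104 TPM, whereas the orange parts, PARP1-206 and LIG3-203, are at 0 in 7 and 6 libraries and at 22 TPM or more in the others.

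Of the other 8 genes, ADPRS, HPF1, XRCC1, TNKS and TNKS2 were each read mainly as 1 coding transcript, numbered 201, with 93.5% of the counts or more in each group mean. PARP2 was shared by PARP2-202 (43.0% to 50.3%) and PARP2-201 (31.3% to 38.4%), and LIG3 by LIG3-202 (51.7% to 55.5%) and LIG3-201 (32.9% to 38.4%). PARG was led by PARG-207, at 74.4% to 91.4%, before PARG-201, at 3.02% to 15.6% and at 0 TPM in 7 libraries. PARP3 differed most between groups, since PARP3-209 held 18.6% ± 4.43 of its counts in WT and 38.8% ± 3.82 in KO, PARP3-203 held 9.96% ± 3.73 and 0.55% ± 0.548, and PARP3-201 held 62.9% ± 7.47 and 47.6% ± 5.03. None of these 3 PARP3 shares passed the test of transcript usage (each transcript against the rest of its gene, edgeR with adjustment over 82162 transcripts). Over 51 transcripts of 7 of the genes, that test called 2 in KO against WT, where 1.53% of all transcripts were called, and 4 had an unadjusted p under 0.05. They were PARP1-214 and LIG3-205, named after their values were seen, and both were listed at 0 counts in all 3 WT libraries and in the third KO library. KO+G against KO gave 2 calls (PARP1-206 and PARP1-214, 1.07% of all), and KO-WT against KO gave 0 in edgeR (1.0% of all), with 1 at an unadjusted p under 0.05. The calls were not kept when the 6 compared libraries were fitted alone, which left 0 in KO against WT and 0 in KO+G against KO. Without the first or the second WT library 0 were left in KO against WT, and without the first or the second KO library 1. In KO+G against KO 0 were left without the first or the second KO library or the first or the third KO+G library, and 1 without the third KO library.

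The other genes of these pathways were read in 3 lists and are described by counts. For all 3 lists the shares over all genes are the same. In KO against WT, 35.9% of all genes were called higher and 36.8% lower. In KO+G against KO, 27.3% were called higher and 29.2% lower. Of 12 readers and removers of ADP-ribose other than those above, 5 were higher and 5 lower in KO than in WT (median log2 fold change -0.06, against 0.01 over all genes). MACROH2A1, a histone variant with a macrodomain, a part that can bind ADP-ribose, fell from 255 ± 6.85 to 133 ± 2.49 CPM. This level is a sum over all its transcripts, whose forms were not told apart here. ADPRH, which removes ADP-ribose from arginine, rose from 0.377 ± 0.0732 to 1.6 ± 0.127 CPM. RNF146, the ubiquitin ligase that reads chains made by tankyrases, fell by a log2 of 0.29 (-0.29 ± 0.041, SE), and NUDT5, which cleaves free ADP-ribose, rose by 0.33 ± 0.032. With guanosine 2 of the 12 rose and 4 fell. MACROH2A1 rose to 178 ± 1.21 CPM and ADPRH fell to 0.854 ± 0.0595, while RNF146 fell again, by a log2 of -0.29, and APLF, a histone chaperone that binds ADP-ribose, fell by -0.47.

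Of 10 single-strand break repair partners, 4 were higher and 6 lower in KO than in WT (median -0.22), and 5 were higher and 3 lower in KO+G than in KO (median 0.11). FEN1, the flap endonuclease of long-patch repair and of Okazaki fragments, went from 203 ± 3.33 CPM in WT to 113 ± 3.82 in KO and 250 ± 3.12 in KO+G. PCNA, the sliding clamp of replication, went from 198 ± 3.02 to 106 ± 4.16 and 191 ± 3.62, and LIG1, the replicative ligase, from 60.2 ± 2.63 to 47.3 ± 0.352 and 89.2 ± 2.38. TOP1, the topoisomerase whose trapped form gives PARP1 substrates, fell from 290 ± 6.42 to 195 ± 2.49 CPM in KO and rose to 237 ± 9.4 in KO+G. APEX1, the abasic site endonuclease, rose in KO by 0.39 ± 0.023 and fell with guanosine by -0.12 ± 0.022. FEN1, PCNA and LIG1 also act in replication. The summed proliferation genes likewise fell in KO and rose in KO+G (2483 to 2570 CPM in WT, 972 to 1002 in KO, 2306 to 2325 in KO+G). In KO+G this sum stayed below WT, while FEN1 and LIG1 stood above it. The part of proliferation in these changes was not tested. Of the 8 proliferation genes, 7 were lower in KO than in WT, and MCM2 was higher (113 ± 2.38 to 120 ± 2.39 CPM), as PARP1 was. In KO-WT, KO-NLS and KO-NES against KO, 7, 6 and 7 of the 10 repair partners were higher and 3, 2 and 2 lower. Of all genes, 25.7%, 26.1% and 24.6% were called higher there and 25.1%, 26.9% and 26.0% lower.

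Of 12 partners and substrates of the tankyrases, 4 were higher and 6 lower in KO than in WT (median -0.17), and 6 were higher and 2 lower in KO+G than in KO (median 0.10). AMOT, the motin that binds YAP, was nearly silent in WT at 0.296 ± 0.0792 CPM and stood at 11.1 ± 0.592 in KO and 16.7 ± 0.856 in KO+G. Its relative AMOTL2 had 123 ± 2.43 CPM in WT, fell in KO by a log2 of 0.29 (-0.29 ± 0.023, SE) and rose to 171 ± 1.03 CPM in KO+G. TERF1, the telomere protein from which TNKS takes its name, fell from 23.2 ± 0.315 to 14.2 ± 0.608 CPM in KO and did not pass with guanosine (15.1 ± 0.285). AXIN2, a scaffold and a target gene of the Wnt pathway, fell from 7.71 ± 0.47 to 5.44 ± 0.0457 CPM in KO and rose to 7.18 ± 0.199 in KO+G.

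The coding genes whose levels were most like those of PARP1 over the 18 libraries, among 10087 with a mean log2 CPM of at least 3, were DTL, CDCA7, EXO1, BRD9 and MCM2, with Pearson's r of 0.982, 0.981, 0.978, 0.977 and 0.974. The 18 points fall into 6 groups and share their libraries, so r describes mainly the group means. DTL stood at 68.4 CPM (WT), 72.1 (KO) and 105 (KO+G), and EXO1, an exonuclease of resection and mismatch repair, at 51.3, 52.2 and 87.8. Like PARP1, these 5 had a higher mean in KO than in WT and their highest mean in KO+G. Among the other 9 genes described here, PARG was most like PARP1 (r = 0.93, rank 77 among the candidates), then PARP2 (0.80) and LIG3 (0.63). HPF1 and TNKS had r of 0.02 and -0.03, and PARP3 was the most opposed at -0.77.

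Where a gene lies was read against its neighbours, the nearest 10 tested coding genes on each side on the same chromosome. Of all genes tested in KO against WT, 36.8% were called lower and 35.9% higher. In this comparison ADPRS had -0.60 and its 20 neighbours on chromosome 1 a median of -0.45, with 18 called lower and 1 higher. HPF1 had -0.53 and its 20 neighbours on chromosome 4, over 10.7 Mb, a median of -0.48, with 14 lower and 3 higher. The upper quartile was -0.02 for these neighbours, against -0.26 for those of ADPRS. The nearest 2 to HPF1 on 1 side had -0.03 (NEK1) and 0.03 (CLCN3). On the other side they had -0.6 (MFAP3L) and -0.18 (AADAT). Most neighbours of the 2 widest falls among the 10 genes were thus called lower too, less evenly for HPF1 than for ADPRS. Gene copy number was not measured here. PARP1 (0.11) lay among neighbours with a median of 0.40, 12 of 20 called higher, and PARP2 (0.12) among 13 with a median of 0.41, 10 called higher. XRCC1, at -0.23, lay below its neighbours' median of 0.27, but these were spread widely, with quartiles of -0.12 and 1.56. The nearest 2 to XRCC1 on 1 side had -0.22 (ETHE1) and -1.52 (ZNF575). On the other side the values were -0.06 (PINLYP) and 0.22 (IRGQ). PARP3 (0.11, not passed) lay beside a median of -0.26, PARG (0.09) beside 0.21, LIG3 (-0.02) beside 0.07, TNKS (-0.23) beside -0.13 and TNKS2 (-0.18) beside -0.11.

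**Figure D4:**
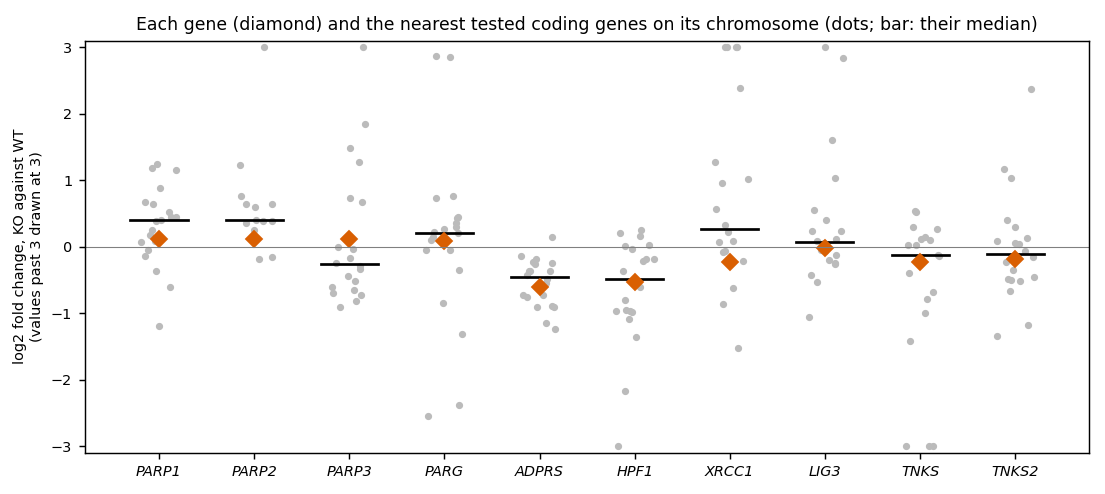
Log2 fold change in KO against WT (vertical axis) of each of the 10 genes (diamond), of the nearest tested coding genes on its chromosome (dots) and of their median (bar); 11 dots past 3 in size are drawn at the edge. The diamonds of ADPRS (-0.60) and HPF1 (-0.53) lie near their neighbours' medians of -0.45 and -0.48, and that of XRCC1 (-0.23) lies below a median of 0.27.

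Reads of near copies and of overlapping genes could be shared. The pseudogene PARGP1 had mean counts of 50.5 to 96.3 per group and PARP1P1 of at most 4.2. On the opposite strand, LIG3 overlaps RFFL (41.2 CPM over the 18 libraries), PARG overlaps TIMM23B (11.7 CPM) and XRCC1 overlaps PINLYP (8.48 CPM). The libraries were stranded per the labels, and whether quantification used the strand is not given in the sources used here.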

How the data were processed

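Polyadenylated RNA of 18 libraries was prepared from 500 ng of total RNA with a TruSeq stranded kit, per the labels' protocols. The authors' deposited tables hold Salmon estimated counts, TPM and transcript lengths of 252048 transcripts, per the file headers. Trim Galore 0.6.10, Salmon 1.10.0 and the genome hg19 are named in the submitters' processing notes. Positions here are GRCh38 from GENCODE 29, and promoters come from RefSeq on GRCh38.p14. All samples were taken as MDA-MB-231, as the growth protocol has it, although the number at the end of the cell line label goes up with each sample.

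Deposited estimated counts (32.5% of the transcript values not whole) were summed to genes and rounded. The series table and the sample tables gave the same values (largest difference 0.0). Of 62749 genes, 19252 passed filterByExpr. All 18 libraries entered 1 edgeR 4.0.16 fit (R 4.3.3), TMM-scaled, with 1 mean for each group; tests were two-sided quasi-likelihood tests with Benjamini-Hochberg adjustment over all genes of a comparison and a threshold of 0.05. The common biological coefficient of variation was 4.87%. SEs are the size of the log2 fold change over the root of its F value. Transcript usage was tested with diffSpliceDGE over 82162 transcripts. TPM was summed as deposited. Methods were tested on simulated data. Alternatives were DESeq2 1.42.0 (its size factors and its Wald test), no filter, the compared libraries alone, a replicate block, an offset for average transcript length, and each library left out; coding transcripts alone, with and without that offset, were added after seeing the data. Replicate numbers did not pair the samples. limma 3.58.1, Python 3.11.15, pandas 2.3.3, numpy 2.4.6 and matplotlib 3.10.9 were used.

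Named are the 10 genes, their transcripts with at least 10% of a gene's counts in a group mean, up to 4 genes per list with the smallest adjusted p in KO against WT or KO+G against KO, the 5 coding genes most like PARP1, and neighbours. A gene that this rule takes is not reported here. Other transcripts were named after their values were seen. The members and lists were chosen with earlier results of these data known.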

Additional observations from a re-analysis of the deposited data

How the results depend on the processing

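Of 1120 log2 fold changes of the 10 genes under an alternative setting, 985 kept their direction and their side of the threshold, 88 lost a call, 12 gained one and 35 changed sign. Estimated transcript lengths moved the calls most. With the length offset 5 genes were called in KO against WT, beside 12039 of all genes. Calls were 3 beside 6512 in KO-WT against KO, 4 beside 7051 in KO-NLS against KO and 4 beside 6613 in KO-NES against KO. They were 0 beside 1858 in KO-NLS against KO-NES and 2 beside 4145 in KO+G against KO-WT. Without the offset, the calls over all genes were 13996, 9780, 10213, 9751, 4600 and 7230, in that order. With coding transcripts alone and the offset, where fewer genes were tested, 4 genes were called in KO-WT against KO and 2 in KO-NLS against KO-NES, and all genes called were 9270 in KO against WT, 6491 in KO+G against KO, 5350 in KO-WT against KO, 5853 in KO-NLS against KO, 5539 in KO-NES against KO, 1784 in KO-NLS against KO-NES, 8094 in KO-WT against WT and 3802 in KO+G against KO-WT. In KO-NLS against KO-NES the 5 genes became 3 with the DESeq2 Wald test, 3 without the filter, 2 with the compared libraries alone, 2 with coding transcripts alone, and 2 to 4 with a library left out. Over all genes the calls there were 4338, 4343, 3648, 3195 and 3590 to 4186, in that order. The usage calls fell to 0 in KO against WT and 0 in KO+G against KO with the compared libraries alone and to 0 to 2 in each with a library left out, and without the filter KO-WT against KO had 1. For these counts the cause was not tested beyond the transcripts described above.

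The replicate numbers are shared by all groups but did not pair the samples: correlations of same-numbered libraries were -0.06 to 0.12, and 5 of 18 libraries correlated best with their own number. The replicate block changed 0 of the 80 gene calls, left 1 usage call in KO against WT and left 0 in KO+G against KO.

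Changes of sign concerned differences that had not passed, except those of LIG3 named next. With the length offset LIG3 gave 1.04 in KO against WT, -0.83 in KO+G against KO, -0.56 in KO-WT against KO and -0.09 in KO-NES against KO, none of them called, TNKS -0.07 in KO+G against KO, PARG -0.14 and HPF1 -0.02 in KO+G against KO-WT. With coding transcripts alone LIG3 gave 0.02 in KO against WT, TNKS2 -0.01 in KO-NLS against KO and PARG -0.04 in KO-NLS against KO-NES. With coding transcripts and the offset LIG3 gave 0.1 in KO against WT, TNKS -0.0 in KO+G against KO, PARG -0.02, ADPRS -0.01 and XRCC1 -0.01 in KO-NLS against KO-NES, and PARP3 -0.01 and PARG -0.01 in KO+G against KO-WT. Without the filter ADPRS gave 0.0 in KO-NLS against KO and PARP3 -0.0 in KO+G against KO-WT. With a library left out, LIG3 ran from -0.06 to 0.0 in KO against WT, ADPRS from -0.03 to 0.0, XRCC1 from -0.01 to 0.1 and TNKS2 from -0.0 to 0.03 in KO-NLS against KO, ADPRS from -0.07 to 0.0 and XRCC1 from -0.03 to 0.03 in KO-NES against KO, ADPRS from -0.02 to 0.05 and XRCC1 from -0.01 to 0.1 in KO-NLS against KO-NES, and PARP3 from -0.02 to 0.03 and PARG from -0.01 to 0.02 in KO+G against KO-WT. With 3 libraries a group, a difference that did not pass is not shown to be absent.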
